A study of Mus musculus with 11 samples.

Results

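Chromatin accessibility was described at the genes of the LC3 and GABARAP family, the mouse relatives of yeast Atg8. The 5 genes were Map1lc3a, Map1lc3b, Gabarap, Gabarapl1 and Gabarapl2. Every ATAC-seq peak was taken whose gene in the authors' annotation, the gene with the nearest transcription start site, was one of these. This gave 12 peaks of the 94410 in the series, with 5 at Map1lc3b, 3 at Gabarapl2, 2 at Gabarapl1 and 1 each at Map1lc3a and Gabarap. Of the 12 peaks, 6 were annotated as promoter, and 5 of these lay over the gene's start site, 1 for each gene. All 12 had an adjusted p in each comparison, so none was lost to a filter on low peaks.

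Atg8 proteins are small ubiquitin-like proteins. The protease Atg4 trims them, Atg7 and Atg3 activate and transfer them, and a complex of Atg12, Atg5 and Atg16l1 directs their attachment to a lipid of the growing autophagosome membrane. There they recruit receptors that carry cargo, and the protein on the inner membrane is degraded with that cargo in the lysosome. LC3 proteins are known for the growth of the membrane and for cargo capture, and GABARAP proteins also for later steps, including fusion with the lysosome. In blood stem cells autophagy is known to clear mitochondria and to restrain metabolic activity, and it has been linked to stem cell function in age.

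Haematopoietic stem cells (HSCs) were purified from mouse bone marrow at steady state, and open DNA was tagged by a transposase (ATAC-seq). Young HSCs gave 5 libraries and were not fractionated. Old HSCs gave 3 pairs of libraries, each an AThi fraction (labelled GFPlo, the higher autophagy status) and an ATlo fraction (labelled GFPhi). All 3 groups, the young controls included, were homozygous for a GFP-LC3 reporter (genotype Gfplc3/Gfplc3), in which autophagy lowers the GFP signal by degrading the fusion protein. The sources used here do not give the promoter or insertion site of the reporter, the age in numbers, the number of animals per library or which libraries belonged to which of the 2 isolation days. Age, fractionation and isolation day therefore cannot be told apart in comparisons with young HSCs.

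The files held the authors' mean normalised count per peak over the 11 libraries and 3 sets of log2 fold changes with standard errors (SE), not values per library. Levels per group were derived from the mean count and the log2 changes, with 95% intervals from each group's share of the variance. The variances also gave a coefficient of variation between libraries, which lay between 11.8% and 35.9% for the 12 peaks. Depth per library was unknown. All 8 HSC markers, among them Mecom, Kit and Procr, had a promoter peak (mean normalised counts of 28.6 to 414). Of 4 T cell markers, Cd3e, Cd3d and Cd8a had none and Cd4 had 6.55. All 4 erythroid markers (55.1 to 229) and all 4 endothelial markers (44.4 to 107) also had one. So did 4 of 5 granulocyte and monocyte markers (12.6 to 304), all but S100a8, and 3 of 4 B cell markers (13.7 to 67.5), all but Cd79a.

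Sequences before the start site are shown for 4 of the 5 genes, from the RefSeq table of build GRCm38.p6, as a description of these promoters. Each is the 250 bases before the start, read 5′ to 3′ on the gene's own strand. The peaks are in mm39 coordinates, so the sequences were set beside them by distance from the start alone. Peaks covered this window in full at Gabarap and Gabarapl2, from -249 at Map1lc3b and from -149 at Gabarapl1. Capitals mark matches, on either strand, to GGGCGG (the GC box bound by Sp factors), CCGGAAG (ETS factors) and TGACGT (a partial CRE, bound by CREB and ATF factors).
Gabarap: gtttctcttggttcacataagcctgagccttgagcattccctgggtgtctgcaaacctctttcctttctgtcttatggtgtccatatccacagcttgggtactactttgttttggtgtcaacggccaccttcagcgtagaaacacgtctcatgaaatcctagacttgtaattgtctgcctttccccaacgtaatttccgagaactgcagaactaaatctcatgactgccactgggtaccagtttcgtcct
Map1lc3b: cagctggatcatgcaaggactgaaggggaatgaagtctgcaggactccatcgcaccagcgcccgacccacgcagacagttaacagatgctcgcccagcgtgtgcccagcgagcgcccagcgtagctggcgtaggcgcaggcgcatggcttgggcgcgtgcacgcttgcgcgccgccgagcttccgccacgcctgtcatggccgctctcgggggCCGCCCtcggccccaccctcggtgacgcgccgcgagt
Gabarapl1: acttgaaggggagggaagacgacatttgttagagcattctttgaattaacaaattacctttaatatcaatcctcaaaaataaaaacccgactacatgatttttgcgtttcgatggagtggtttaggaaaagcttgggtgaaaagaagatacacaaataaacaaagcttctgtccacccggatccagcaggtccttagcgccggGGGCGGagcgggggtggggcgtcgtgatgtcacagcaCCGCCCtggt
Gabarapl2: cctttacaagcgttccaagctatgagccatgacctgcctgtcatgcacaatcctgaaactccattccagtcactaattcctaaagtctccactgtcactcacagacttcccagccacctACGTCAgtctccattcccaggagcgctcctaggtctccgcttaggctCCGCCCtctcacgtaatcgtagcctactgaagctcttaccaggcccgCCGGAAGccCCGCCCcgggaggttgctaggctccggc

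Gabarap and Map1lc3b, whose promoters had the lowest changes of the start-site peaks, differed widely in these letters. The Gabarap window had a GC content of 46.4%, 6 CpG dinucleotides and none of the motifs searched. The Map1lc3b window had a GC content of 69.6%, above 90.2% of the 32851 windows in the table, with 30 CpG dinucleotides and 1 GC box 37 bases before the start. Gabarapl1 (46.8% GC, 12 CpG dinucleotides) had GC boxes 47 and 10 bases before the start. Gabarapl2 (57.2% GC, 12 CpG dinucleotides) had GC boxes at 84 and 28 bases, an ETS match at 37 and a TGACGT match at 131. A GC box was found in 32.7% of all windows, CCGGAAG in 6.91% and TGACGT in 6.47%. No window of the 4 held CACGTG (the E-box, 6.02% of windows) or its longer form TCACGTGA, which TFEB binds (0.785%). None held GTAAACA (a form of the forkhead site, 3.17%), the full CRE TGACGTCA (1.55%) or CCAAT (33.8%). Only these exact letters were searched, and other forms of a site were not counted. The Gabarapl1 window holds ATAAACA, which was not among the letters searched. TCACGTGA contains CACGTG, and TGACGTCA contains TGACGT.

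The LC3 genes came first. Map1lc3b, the LC3 form most used as an autophagosome marker, lies on chromosome 8 (122317177 to 122325499, mm39). Its promoter peak (122316928 to 122318427) stood at a derived normalised count of 298 in young HSCs (95% interval 259 to 343), 221 in old AThi (184 to 265) and 219 in old ATlo HSCs (184 to 262). Both old intervals overlapped the young one narrowly and each other almost fully. For this promoter the authors' deposited table listed -0.43 on the log2 scale for AThi HSCs (SE 0.17, adjusted p = 0.0808) and -0.44 for ATlo HSCs (SE 0.17, adjusted p = 0.0713), so neither DESeq2 comparison passed an adjusted p of 0.05. At these SEs a log2 change of 0.47 was needed to pass in either. The mean of both old fractions against young, a contrast built from the deposited changes and SEs, gave -0.44 (SE 0.14, adjusted p = 0.0154), which passed. It treats both fractions of a pair as separate libraries. Counting each pair as 1 library ended that call (adjusted p = 0.0839).

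As deposited, none of the other Map1lc3b peaks was called in any comparison. The strongest of them per length lay 4.53 kb upstream of the start (122311869 to 122312650), at 319 normalised counts per kb in young HSCs against 199 for the promoter. For this intergenic peak the authors' deposited table listed -0.32 for AThi (SE 0.17, adjusted p = 0.238) and -0.35 for ATlo HSCs (SE 0.16, adjusted p = 0.181). The peak in intron 2 (122320705 to 122321186) lay the other way, at 64.9 in young, 74.9 in AThi and 90.2 in ATlo HSCs. Its ATlo value per the authors' deposited table, 0.47 (SE 0.21, adjusted p = 0.144), did not pass. In the mean of the old fractions the upstream peak (adjusted p = 0.0781) and the intron peak (adjusted p = 0.19) did not pass either. The intron peak passed when the median change of the strongest 10% of promoter peaks was set to 0, at 0.78 in ATlo HSCs (adjusted p = 0.00254) and 0.60 in the mean (adjusted p = 0.0061).

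A pair of Map1lc3b peaks belonged to it by distance alone. One, annotated as 3′ UTR (122325680 to 122325998), began 181 bp past the end of Map1lc3b and inside the span of Zcchc14, a gene on the opposite strand whose span overlaps that of Map1lc3b by 58 bp. The other lay in intron 12 of Zcchc14, 12.4 kb from the Map1lc3b start (122329599 to 122330066). At the 3′ UTR peak the authors' deposited table listed -0.18 for AThi (SE 0.26) and -0.23 for ATlo HSCs (SE 0.25), and at the Zcchc14 intron 0.23 (SE 0.22) and -0.07 (SE 0.22). No Map1lc3b peak was annotated as exon. Reads from an LC3 sequence in the reporter allele would align to LC3 exons, and their part in the first-exon signal under the promoter peak was not tested.

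Map1lc3a, which encodes the other LC3 form measured here, had a single peak, over its start site on chromosome 2 (155117999 to 155119329). Its derived level was 257 in young (225 to 294), 262 in AThi (221 to 311) and 244 in ATlo HSCs (206 to 288), with 3 intervals that nearly coincided. The authors' deposited table listed Map1lc3a at 0.03 for AThi (SE 0.16, adjusted p = 0.947) and -0.08 for ATlo HSCs (SE 0.16, adjusted p = 0.841), neither of which passed. The Map1lc3b and Map1lc3a promoters had nearly equal mean counts (255 each), and per kb they stood above 74.2% and 79.9% of all promoter peaks.

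**Figure D1:**
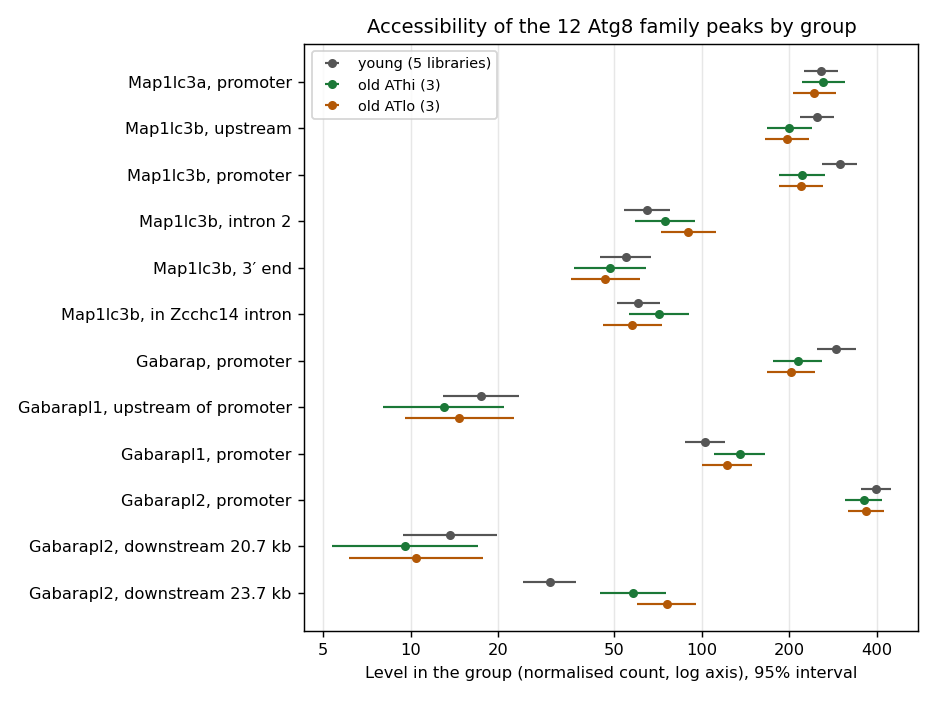
Derived level of each of the 12 peaks in young (5 libraries), old AThi (3) and old ATlo HSCs (3), as normalised count on a log axis; points are group levels and bars 95% intervals. The peak 23.7 kb downstream of the Gabarapl2 start has old intervals that do not meet the young one, from 44.8 in AThi against at most 37.0 in young HSCs, and at the Gabarap promoter the ATlo interval ends just below the young one.

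Among the GABARAP genes, the promoter of Gabarap was less accessible in old ATlo than in young HSCs. Its single peak covered the start site on chromosome 11 (69881608 to 69882768), with a derived level of 290 in young (249 to 338), 214 in AThi (176 to 260) and 203 in ATlo HSCs (168 to 246). The ATlo interval lay just below the young one, while the AThi interval overlapped it. For ATlo HSCs the authors' deposited table listed Gabarap at -0.51 on the log2 scale (SE 0.18, adjusted p = 0.0487), 1.43-fold lower and just past the threshold. The AThi value there, -0.44 in the authors' deposited table (SE 0.18, adjusted p = 0.109), did not pass. The mean of both old fractions gave -0.48 (SE 0.15, adjusted p = 0.015), or 0.0816 with each pair counted as 1 library. Moving the median change of all peaks from -0.03 to 0 ended the ATlo call (log2 -0.48, adjusted p = 0.0721).

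The next start site downstream, that of Phf23, lies 4.40 kb from the Gabarap start and carried 2 promoter peaks. Both were called lower for ATlo HSCs in the authors' deposited table, at -0.62 (SE 0.20, adjusted p = 0.0273) and -0.57 (SE 0.20, adjusted p = 0.0488). For AThi HSCs neither passed in the authors' deposited table, at -0.38 (adjusted p = 0.244) and -0.29 (adjusted p = 0.417). The ATlo values at Phf23 were thus near that at Gabarap. Phf23 encodes a PHD finger protein and was named after its values were seen.

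Gabarapl1, also called GEC1, was the member whose start-site peak lay higher in both old fractions. The peak on chromosome 6 (129510006 to 129510866) stood at 103 in young (87.9 to 120), 135 in AThi (111 to 165) and 122 in ATlo HSCs (101 to 149), and all 3 intervals overlapped. Neither fraction passed at Gabarapl1, which the authors' deposited table listed at 0.40 for AThi (SE 0.19, adjusted p = 0.173) and 0.25 for ATlo HSCs (SE 0.18, adjusted p = 0.456). In the mean of the old fractions it was 0.32 (SE 0.15, adjusted p = 0.14). With the median of the strongest promoters set to 0 these 3 values passed, at 0.61 (adjusted p = 0.0107), 0.56 (adjusted p = 0.0199) and 0.58 (adjusted p = 0.0016). Those promoters had mean counts of at least 327, beside 117 here, and medians of -0.22 in AThi and -0.30 in ATlo HSCs. Promoters within 1.5-fold of the mean count of Gabarapl1 had medians of -0.08 and -0.12. The shift of that scaling was thus larger than the median change of promoters of its level. Setting the strongest promoters to 0 left Gabarap at -0.21 in ATlo and -0.22 in the mean of the fractions, and Map1lc3b at -0.18 in that mean, none of which passed.

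A scaling by 1 amount moves all peaks of a comparison alike, so differences between members do not depend on it. Median changes did vary with level. They were -0.16 in AThi and -0.23 in ATlo HSCs for promoters within 1.5-fold of the mean count of Gabarap, and -0.08 and -0.12 for those near Gabarapl1. The Gabarapl1 start-site change exceeded that of Gabarap by 0.84 in AThi and 0.77 in ATlo HSCs on the log2 scale, and that of Map1lc3b by 0.83 and 0.69. Map1lc3b and Gabarap were 0.01 apart in AThi HSCs. These differences were chosen after their values were seen and were not tested. A weak second Gabarapl1 peak, 0.348 kb before the start (129509530 to 129509807), had a mean normalised count of 15.5 and was listed at -0.42 for AThi (SE 0.42) and -0.24 for ATlo HSCs (SE 0.39) by the authors' deposited table. A further 2 peaks over the Gabarapl1 gene were assigned to 1700101I11Rik, a gene on the opposite strand that overlaps its start. Neither was called in the authors' deposited table, with adjusted p-values of 0.418 and 0.9 in AThi and 0.965 and 0.681 in ATlo HSCs.

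**Figure D2:**
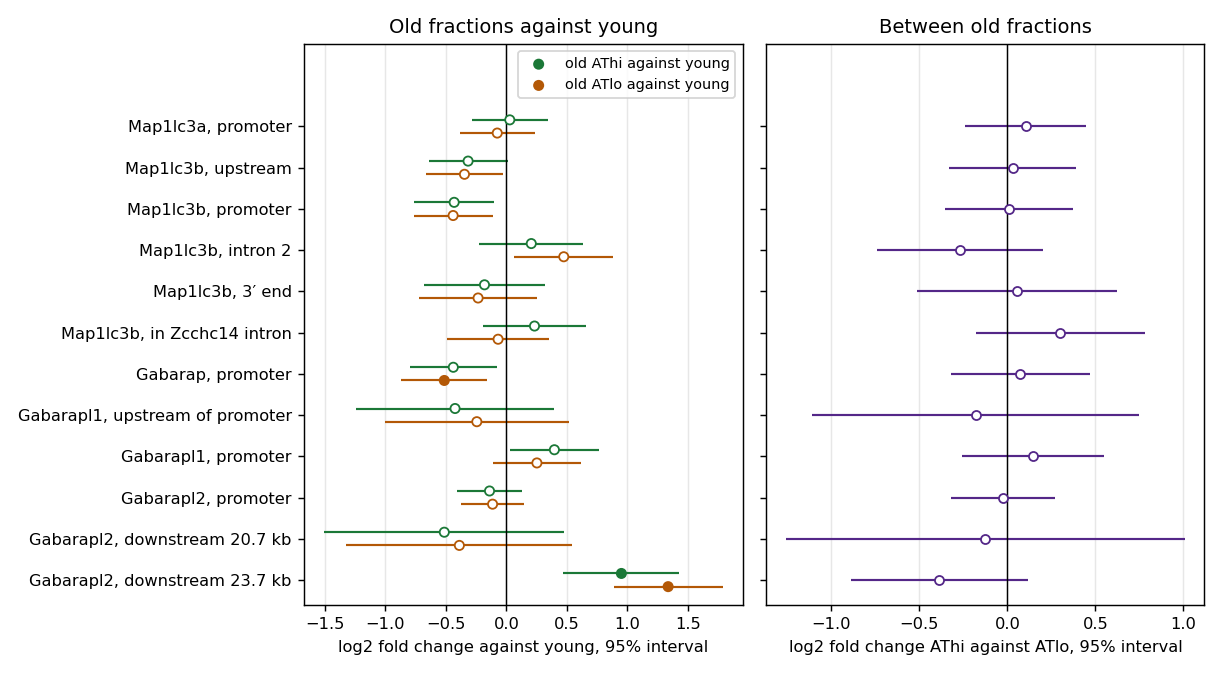
Log2 fold changes of the 12 peaks with 95% intervals, for each old fraction against young (left) and for AThi against ATlo (right); filled points have an adjusted p under 0.05. Filled points are the peak 23.7 kb downstream of the Gabarapl2 start in both fractions and the Gabarap promoter in ATlo HSCs, and every interval on the right includes 0.

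Gabarapl2, also called GATE-16, had the promoter of highest mean count in the family and the clearest change, and these were different peaks. Its promoter on chromosome 8 (112666393 to 112668115) had a mean normalised count of 379, or 220 per kb, above 85.6% of all promoter peaks. Per kb in young HSCs alone, the Gabarap promoter stood higher, at 250 against 231 here. Levels of the Gabarapl2 promoter were 397 in young (354 to 446), 361 in AThi (312 to 417) and 367 in ATlo HSCs (319 to 423). This promoter was listed by the authors' deposited table at -0.14 for AThi (SE 0.14, adjusted p = 0.596) and -0.11 for ATlo HSCs (SE 0.13, adjusted p = 0.686), and at these SEs a change of 0.38 was needed to pass.

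The called Gabarapl2 peak lay 23.7 kb past the start site (112691011 to 112692126), 11.5 kb beyond the gene's end and 1.40 kb before the end of Adat1, which encodes a tRNA adenosine deaminase and runs on the opposite strand. It stood at 30.0 in young (24.4 to 37.0), 58.0 in AThi (44.8 to 75.2) and 75.9 in ATlo HSCs (60.1 to 95.7). Neither old interval met the young one. In the authors' deposited table it was 1.93-fold higher in AThi (log2 0.95, SE 0.24, adjusted p = 0.00237) and 2.52-fold higher in ATlo HSCs (log2 1.34, SE 0.23, adjusted p = 7.16e-07). The mean of both fractions was 1.14 (SE 0.20), and it still passed with each pair counted as 1 library (adjusted p = 7.28e-05). Of the family's calls this one alone passed an adjusted p of 0.01. Its mean normalised count was 50.2 (45.0 per kb), below the start-site peaks of the family but above the median of 27.5 over all peaks.

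The nearest peaks on either side of it were not called. A weak intergenic Gabarapl2 peak 20.7 kb from the start (112688028 to 112688297, mean normalised count 11.7) stood at -0.51 for AThi (SE 0.51) and -0.39 for ATlo HSCs (SE 0.48) in the authors' deposited table. For the next peak, assigned to Adat1 and annotated as 3′ UTR, the authors' deposited table listed -0.07 (adjusted p = 0.92) and -0.10 (adjusted p = 0.882). The authors' annotation gave the called peak to Gabarapl2 because its start site was the nearest, and no measurement here ties it to that gene's expression.

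**Figure D3:**
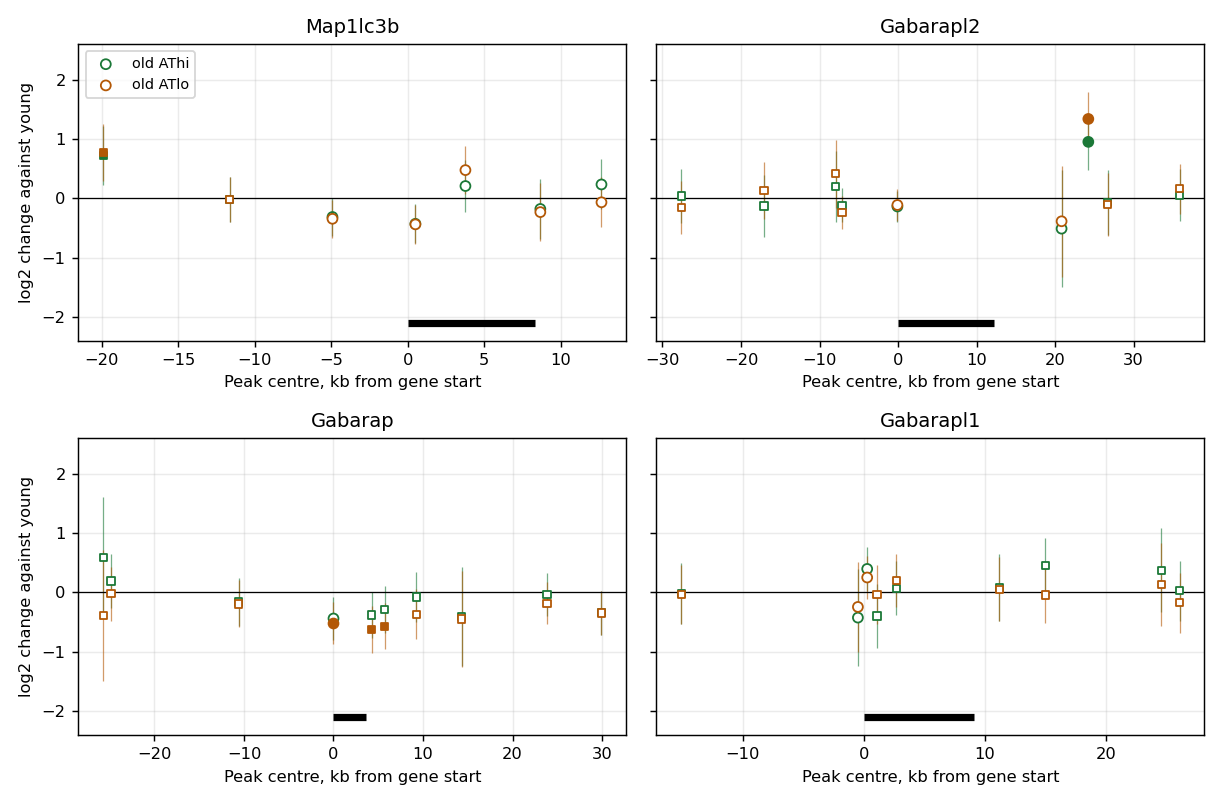
Log2 change against young of every peak within 30 kb of the span of 4 of the genes, by distance of the peak's centre from the gene's start, with 95% intervals; circles are peaks assigned to the gene, squares peaks of neighbours, filled symbols have an adjusted p under 0.05, and the black bar is the gene. At Gabarapl2 the only filled symbols belong to 1 distal peak, and at Gabarap the ATlo points of both Phf23 peaks to its right are filled too. At Map1lc3b the filled squares are a peak in intron 1 of Fbxo31.

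Between the old fractions no family peak was called. AThi exceeded ATlo at 7 of the 12 peaks and was lower at 5, with log2 changes from -0.39 to 0.30 and a smallest unadjusted p of 0.132. Every adjusted p was 1.00 in the authors' deposited table, and DESeq2 called 0% of all 94410 peaks in this comparison. At an unadjusted p under 0.05 there were 0 family peaks and 1683 peaks in all (1.78%). Uniform p-values would put a share of 0.05 there, so small p-values were fewer than that, for a reason that was not tested. The absence of calls therefore does not show that the fractions are alike. The 95% intervals of the AThi against ATlo change were -0.36 to 0.37 at the Map1lc3b promoter, -0.32 to 0.47 at Gabarap and -0.32 to 0.27 at the Gabarapl2 promoter. At the called Gabarapl2 peak the interval was -0.89 to 0.12. These intervals are not limits of detection, since even the peak with the smallest unadjusted p of all (0.00019) was not called. The variances in the tables were close to those of a fit with group terms alone, without the pair.

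Counts of calls in the family were small and are set beside the shares over all peaks. In AThi against young HSCs 1 of 12 peaks was called higher and 0 lower, where DESeq2 called 7.57% of all peaks higher and 2.74% lower. An unadjusted p under 0.05 was found at 4 of the 12 (33.3%), beside 22.4% of all peaks. For ATlo HSCs 1 was called higher and 1 lower, against 6.88% and 2.54% of all peaks, and 5 of the 12 (41.7%) had an unadjusted p under 0.05, beside 21.7% of all peaks. The mean of both fractions gave 1 higher and 2 lower, against 10.3% and 6.27%, and among promoter peaks alone 11.9% were lower. With the strongest promoters at 0 the balance turned, to 3 higher and 0 lower both in ATlo HSCs and in the mean, and to 2 higher and 0 lower in AThi HSCs. Under that scaling 16.8% of all peaks were called higher in ATlo HSCs, 20.4% in the mean and 13.4% in AThi HSCs. The comparisons share the young libraries and are not independent of each other. The median log2 change of the 12 peaks was -0.16 in AThi and -0.17 in ATlo HSCs, beside -0.04 and -0.03 over all peaks. For the 5 start-site peaks it was -0.14 and -0.11, beside -0.11 and -0.14 over all promoter peaks.

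Set against promoters of like level, within 1.5-fold of each one's mean count, Gabarap and Map1lc3b lay in the lower part and the other 3 start-site peaks above the middle. Of 5688 promoter peaks like Gabarap, 7.23% had an ATlo change as low or lower, and 14.3% of 5545 did so for Map1lc3b. Such promoters had median ATlo changes of -0.23 and -0.24. For Gabarapl1, 82.4% of 5673 promoters had an ATlo change as low or lower, and 75.9% and 78.9% did for Map1lc3a and Gabarapl2. In AThi HSCs the shares were 9.37% for Gabarap, 10.2% for Map1lc3b, 61.4% for Gabarapl2, 77.0% for Map1lc3a and 85.1% for Gabarapl1.

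Promoters whose pair of changes against young lay nearest to a member's were listed by distance over the 2 log2 changes, which describes 3 groups only. Nearest to Map1lc3b were Rpl35, Mcm7 and Zbed4, and nearest to Gabarap were Mcm5, Kifc5b and Eif4h, all within 0.01. The nearest to Gabarapl1 were Egln1, Limch1 and A730035I17Rik. For Map1lc3a they were Gse1, Pbx3 and Tfr2, and for Gabarapl2 Wwp1, Ets1 and Apobec3.

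Few peaks were called at the genes that process and attach Atg8 proteins. The list held Atg3, Atg7 and Atg10, the proteases Atg4a to Atg4d, and Atg5, Atg12, Atg16l1 and Atg16l2, with 57 peaks at all 11 genes. In AThi HSCs 1 peak rose and 1 fell, each 1.75% of the 57 and below the background shares given above. The peak that rose was in intron 18 of Atg7, 93.8 kb from its start site, at 0.71 (SE 0.23, adjusted p = 0.0278) per the authors' deposited table, with no second call at that gene. The one that fell was the Atg16l2 promoter, at -0.42 (SE 0.14, adjusted p = 0.0295) per the authors' deposited table and at -0.21 (adjusted p = 0.385) with the strongest promoters set to 0. In ATlo HSCs DESeq2 called 0 of the 57 peaks, with 6 (10.5%) at an unadjusted p under 0.05, beside 21.7% of all peaks. With the strongest promoters at 0, 2 peaks (3.51%) were higher in AThi and 4 (7.02%) in ATlo HSCs, and none lower, beside 13.4% and 16.8% of all peaks higher. The median change of the list was -0.12 in AThi and -0.14 in ATlo HSCs.

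Receptors and adaptors that bind Atg8 proteins had more calls, at shares near the background. Of 92 peaks at 16 genes, 7 rose and 1 fell in AThi HSCs (7.61% and 1.09%), and 8 rose and 1 fell in ATlo HSCs (8.70% and 1.09%). The mean of both fractions gave 9 higher and 4 lower (9.78% and 4.35%), beside 10.3% and 6.27% of all peaks. With each pair counted as 1 library it gave 7 higher and 0 lower (7.61% and 0%), beside 6.679% and 1.955% of all peaks. With the strongest promoters at 0 the counts were 11 higher in AThi (11.96%) and 18 in ATlo HSCs (19.6%), with 0 lower in both, beside 13.4% and 16.8% of all peaks higher. Optn, a receptor for ubiquitinated mitochondria and bacteria, had 2 called peaks in both fractions. At its intron 4 peak, derived levels were 71.0 in young, 132 in AThi and 119 in ATlo HSCs, with log2 changes that the authors' deposited table listed as 0.89 (SE 0.19, adjusted p = 6.56e-05) and 0.75 (SE 0.18, adjusted p = 0.00134). The intergenic Optn peak upstream of the gene rose by 1.37 (SE 0.30) and 1.07 (SE 0.30) according to the authors' deposited table, both called. In the mean of both fractions the Optn promoter passed as well, at 0.43 (SE 0.13, adjusted p = 0.0143), but not with each pair counted as 1 library (adjusted p = 0.0773). Wdfy3, the adaptor ALFY for protein aggregates, had 2 called peaks in both fractions. That in intron 8 stood at 1.35 for AThi (SE 0.23) and 0.94 for ATlo HSCs (SE 0.23) in the authors' deposited table, and that in intron 4 at 0.82 (SE 0.26) and 0.88 (SE 0.26).

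Stbd1, which binds glycogen, had the one receptor promoter called higher in either fraction. Its levels were 114 in young, 197 in AThi and 171 in ATlo HSCs, with log2 changes that the authors' deposited table listed as 0.78 (SE 0.17, adjusted p = 0.000111) and 0.58 (SE 0.17, adjusted p = 0.0101). In ATlo HSCs an intron 3 peak of Retreg1, a receptor for the endoplasmic reticulum, rose by 0.91 (SE 0.25, adjusted p = 0.00543) per the authors' deposited table. The AThi value at this Retreg1 peak, 0.72 in the authors' deposited table (SE 0.26, adjusted p = 0.051), did not pass. Among other Retreg1 peaks, in the mean of both fractions its promoter was at -0.44 (SE 0.14, adjusted p = 0.0168) and an intergenic peak at -1.06 (SE 0.33, adjusted p = 0.0138). Neither passed with each pair counted as 1 library (adjusted p = 0.0896 and 0.0874). With the strongest promoters at 0 neither passed either (adjusted p = 0.4 and 0.0677). For ATlo HSCs that promoter was at -0.48 in the authors' deposited table (adjusted p = 0.0517). Promoters of Ankfy1 and Fyco1, both of endosomal transport, were called in 1 fraction each, and a difference between fractions was not called at either. In the authors' deposited table Ankfy1 was at -0.56 (SE 0.18, adjusted p = 0.0247) in AThi and Fyco1 at -0.50 (SE 0.15, adjusted p = 0.0117) in ATlo HSCs. Neither passed with the strongest promoters at 0 (-0.35 and -0.20).

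**Figure D4:**
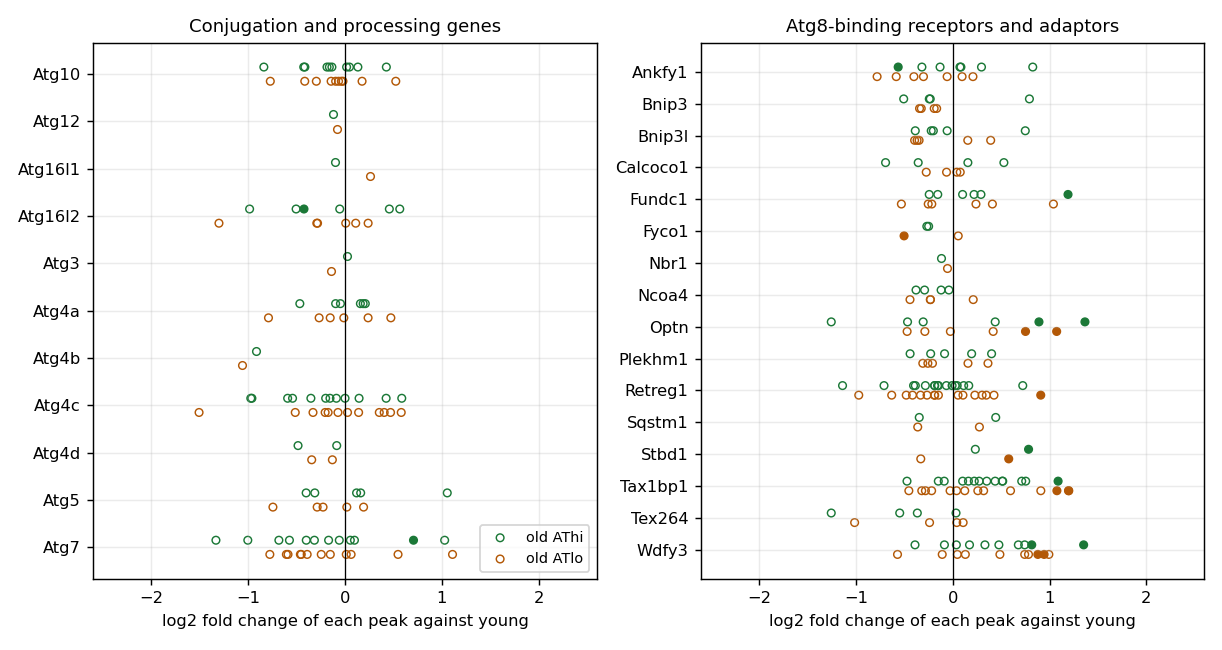
Log2 fold change against young of every peak of the 11 conjugation and processing genes (left) and the 16 receptor and adaptor genes (right), AThi in green and ATlo in orange, 1 row per gene; filled points have an adjusted p under 0.05. Filled points lie to the right of 0 at Optn, Wdfy3, Stbd1, Tax1bp1, Retreg1, Fundc1 and Atg7, and to the left at Atg16l2, Ankfy1 and Fyco1.

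Tax1bp1, Fundc1 and Fyco1 were named after their values were seen. A peak assigned to Tax1bp1, an adaptor in selective autophagy, lay in an intron of another gene and was called in both fractions, at 1.09 for AThi (SE 0.36, adjusted p = 0.0268) and 1.08 for ATlo HSCs (SE 0.35, adjusted p = 0.0275), as listed by the authors' deposited table. The list was chosen with earlier results of these samples known and is not independent evidence of a direction. Between the fractions DESeq2 called 0 peaks of either list, with 0 at an unadjusted p under 0.05.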

How the data were processed

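ATAC-seq libraries of 5 young, 3 old AThi and 3 old ATlo HSC samples were compared. Per the submitters' processing notes, reads were trimmed (cutadapt, Trim Galore), aligned (BWA), made into peaks (MACS2), counted (featureCounts), tested (DESeq2) and annotated (ChIPseeker). The sources used here do not give versions, settings, transposase shift or how peaks were merged, which decide where a peak lies and how many reads it holds. Each of the 3 deposited tables holds 1 comparison over the same peaks, with 0 columns of values per sample. Per the file headers the authors' mean level is the signal of a peak, a normalised count over all libraries. The authors' deposited log2 fold changes and SEs, the Wald statistic (the authors' score), and the deposited p-values and adjusted p-values of DESeq2 were used as they stand, with calls at an adjusted p under 0.05. An adjusted p was missing for 1831 of all peaks.

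The tables came from 1 fit (contrasts closed to within 1.02e-14), so each group's variance follows from the 3 SEs. At 16380 peaks with a mean count over 100, the dispersion implied for AThi and for ATlo was 0.997 and 0.927 times that for young (medians), close to that of a fit with group terms alone. From these came group levels with 95% intervals (1.96 SE) and the mean of both old fractions against young (Wald test, Benjamini-Hochberg over all peaks with a deposited adjusted p). The contrast was tested on simulated data drawn with the assumed variances and no variation shared within a pair. That test could not show whether its p-values hold for paired fractions. P-values set each change against its SE, which rests on the spread between libraries. The labels do not say how many animals each library came from. If fractions of a pair vary together, the p of the mean of both fractions is too small, so a version with each pair as 1 library was added after seeing the data.

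Coordinates are those of the tables. The notes name GRCm38 and mm39; gene starts in the tables differ from the RefSeq GRCm38.p6 table (used for symbols and sequences), so mm39 was taken (Python 3.11.15, pandas 2.3.3, scipy 1.17.1). All peaks of the 5 members were named; of the 2 pathway lists, genes with a called peak, at most the 4 of smallest p per list and comparison. For each start-site peak, the 3 nearest promoters within 1.5-fold of its mean count were named. Members and lists were chosen with earlier results of these data known.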

Additional observations from a re-analysis of the deposited data

How the results depend on the processing

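Calls rested on the scaling and the threshold, except at the distal Gabarapl2 peak, which passed in both fractions and in their mean under each setting that kept it. In AThi against young HSCs the count of family peaks called went from 1 to 2 at an adjusted p under 0.10 and to 2 with the strongest promoters at 0 (2289 promoter peaks, median moved from -0.22). In ATlo HSCs it went from 2 to 1 at an adjusted p under 0.01 and to 1 with the median of all peaks at 0, and to 3 at an adjusted p under 0.10 (1 higher, 2 lower) and 3 with the strongest promoters at 0 (3 higher, 0 lower). In the mean of the fractions it went from 3 to 1 at an adjusted p under 0.01 and to 1 with each pair counted as 1 library, an alternative added after seeing the data; it was 4 at an adjusted p under 0.10 (1 higher, 3 lower) and stayed at 3 with the strongest promoters at 0, as 3 higher and 0 lower in place of 1 and 2. Peaks over or near the gene span (9) were taken by position and included 2 assigned to 1700101I11Rik. They gave 0 calls in AThi and 1 in ATlo HSCs, and the family's promoter peaks alone gave 0 and 1. The called distal peak is left out of both sets. For AThi against ATlo the count was 0 under every setting.

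With the strongest promoters at 0 some uncalled changes turned sign. In AThi HSCs these were the Gabarapl2 promoter (0.0773) and the Map1lc3b 3′ UTR peak (0.0357). In ATlo HSCs they were Map1lc3a (0.2275), the weak upstream Gabarapl1 peak (0.0586), the Gabarapl2 promoter (0.1888) and the Map1lc3b 3′ UTR (0.0690) and Zcchc14 intron (0.2344) peaks. In the mean of the fractions they were Map1lc3a (0.2328, or 0.0233 with all peaks at 0), the Gabarapl2 promoter (0.1297) and the Map1lc3b 3′ UTR peak (0.0490). For AThi against ATlo they were Gabarap (-0.0186) and the Map1lc3b upstream (-0.0631), promoter (-0.0844) and 3′ UTR (-0.0400) peaks. That scaling raised the share of all calls that were higher from 73.4% to 93.7% in AThi, from 73.0% to 98.1% in ATlo HSCs and from 62.1% to 94.0% in the mean. Adjusting over all peaks, or over those with a mean count of at least 20, changed no family call. No paired analysis was possible because the tables hold no values per library; leaving out libraries was not run for the same reason.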
